A study of Mus musculus with 4 samples.

Results

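The 10 genes described here make up the route by which a cell shows peptides on class I molecules of the major histocompatibility complex (MHC). They were taken by symbol from the gene expression tables of T cells sorted from mouse melanomas: H2-K1 and H2-D1 (classical heavy chains), H2-Q7 and H2-T23 (nonclassical heavy chains), B2m (the light chain), Tap1 and Tap2 (the peptide transporter), Tapbp (tapasin, which holds the heavy chain at the transporter), Nlrc5 (the class I transactivator) and Psmb8 (an immunoproteasome subunit). All 10 were found among the 32285 genes of the tables, and all passed the minimum level set for testing in every kind of cell. A class I molecule is a heavy chain bound to B2m and a peptide. The proteasome cuts the peptide, the TAP1-TAP2 transporter moves it into the endoplasmic reticulum, and tapasin helps to load it. NLRC5 raises transcription of many of these genes, and interferons raise most of them. T cells carry class I themselves as well as recognizing it.

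B16bl6 melanoma was implanted in the skin of mice of 6 to 8 weeks, of both sexes, on the C57BL/6 background. The group labelled VISTA-KO carried Vsir fl/fl and CD4cre, so the deletion is driven in cells that expressed Cd4 during their development, CD8+ T cells included. The group labelled WT was Vsir fl/fl littermates without Cre, so both groups carried the floxed allele. All mice received a TRP2 peptide vaccine with CpG and R848 on day 3 and anti-CTLA-4 antibody on days 4 and 8, and tumors were collected on day 18 after treatment. Tumors of several mice were pooled within a genotype (the study's methods and a legend differ on how many), CD4+ and CD8+ cells were sorted together, and 1 library was made from each pool. A difference between the genotypes therefore compares 2 libraries, with no replicate check, and no p-value is given. Intervals are exact 95% intervals for counting error alone.

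A cell was kept if it showed 600 genes or more and less than 30% of its UMIs came from mitochondrial genes (unique molecular identifiers, 1 per captured RNA molecule), which left 10224 cells in the WT library and 9946 in the VISTA-KO library. They were split by a few marker UMIs. CD8 cells were those without Cd4 UMIs that held Cd8a or Cd8b1 (5482 in WT and 4301 in VISTA-KO), conventional CD4 cells a Cd4 UMI and no Foxp3 (1661 and 2983), and regulatory cells a Foxp3 and a Cd4 UMI (1491 and 1260). Cells with 2 or more Siglech UMIs (221 and 138) were set apart and removed from the T cell kinds. Read literally, the rule also counts those that fit a T cell kind there, which gives 5549 and 4350 CD8, 1768 and 3048 conventional CD4, and 1528 and 1270 regulatory cells. Median UMIs per cell lay between 3922 and 5908 except in WT regulatory cells (8739) and in Siglech cells (9181 in WT and 9485.5 in VISTA-KO). The libraries shared 145 cell barcodes.

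The kinds were checked against marker genes. Levels are given as CPM, UMIs scaled to a common total per group. Siglech stood at 1784 CPM in WT and 1810 in VISTA-KO Siglech cells, but it defined them and so checks nothing. Ly6d stood at 2020 and 2463 against 0.163 and 0.0358 in CD8 cells, and Ccr9 at 832 and 916 against 1.33 and 2.40. Klk1 stood at 1082 and 1127 against 0.272 and 0.143. The 7 plasmacytoid dendritic markers summed to 12223 CPM in WT Siglech cells and 317 in WT CD8 cells, where all 7 were also found. The 5 conventional dendritic markers summed to 295 CPM in WT Siglech and 8.43 in WT CD8 cells. Siglech cells were not free of T cell RNA: Cd3e stood at 401 CPM in WT and 210 in VISTA-KO against 1608 and 1575 in CD8 cells. A Cd3e, Cd3d, Trac or Trbc2 UMI was held by 92 of 221 WT and 43 of 138 VISTA-KO Siglech cells. Among regulatory cells, 50.9% in WT and 29.1% in VISTA-KO held a Cd8a or Cd8b1 UMI, and among conventional CD4 cells 29.9% and 19.7% did. The summed markers of NK cells (3) lay between 7 and 101 CPM and of macrophages (6) between 34 and 196 in the 8 groups. The 5 melanoma genes summed to 203 CPM in VISTA-KO CD8 cells, 231 in WT conventional CD4 cells and 197 in VISTA-KO regulatory cells but to between 3 and 16 CPM elsewhere, with Pmel found in 12, 7 and 8 cells of those groups. The part of these RNAs in the results was not tested except where a value without such cells is given. Vsir itself was not lower in T cells of the library labelled VISTA-KO: it stood at 112.5 CPM in WT and 111.7 in VISTA-KO CD8 cells, at 113.8 and 120.4 in conventional CD4 cells, and at 113.9 and 117.8 in regulatory cells. A gene count does not tell which exon a UMI came from, and which exons are floxed is not given in the sources used here, so Vsir does not check the labels. "WT" and "VISTA-KO" mean the libraries so labelled.

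Of the 10 genes, 8 lie on chromosome 17 (GRCm38), where the mouse MHC is: Tapbp at chr17:33919478-33929290, H2-K1 at chr17:33996012-34000619, H2-D1 at chr17:35263094-35267497, H2-Q7 at chr17:35439140-35443773, H2-T23 at chr17:36029977-36032701, and the Tap genes and Psmb8 between H2-K1 and H2-D1. B2m is on chromosome 2 (chr2:122147687-122153082) and Nlrc5 on chromosome 8 (chr8:94434335-94527272). Psmb8 (chr17:34198195-34201454) sits between Tap1 (chr17:34187556-34197225) and Tap2 (chr17:34204479-34216321). RefSeq promoter sequences of GRCm38.p6, from 250 bases before to 50 bases after the annotated start, were at hand for 8 of the genes, not for Tap2 or Nlrc5. They are shown for 5 genes whose levels moved in different ways between Siglech cells and T cells, H2-K1, B2m and Tap1 on the side of T cells and H2-T23 and Tapbp on the side of Siglech cells. Capitals mark 6 short motifs on either strand: GAAANNGAA and GAANNGAAA (letters of the interferon-stimulated response element, which overlap where a site holds both), TTCNNNGAA (letters of the gamma-activated sequence), TGACG and CCAAT (letters of the X2 and Y boxes of class I promoters) and GGGATTCCC (an NF-κB site).
H2-K1, chr17:34000298-34000597, minus strand: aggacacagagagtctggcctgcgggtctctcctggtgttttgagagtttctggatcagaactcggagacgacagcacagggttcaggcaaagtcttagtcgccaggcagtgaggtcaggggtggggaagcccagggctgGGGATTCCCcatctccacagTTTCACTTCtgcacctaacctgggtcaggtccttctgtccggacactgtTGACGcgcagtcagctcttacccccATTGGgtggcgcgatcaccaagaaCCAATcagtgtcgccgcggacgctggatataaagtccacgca
B2m, chr2:122147437-122147736, plus strand: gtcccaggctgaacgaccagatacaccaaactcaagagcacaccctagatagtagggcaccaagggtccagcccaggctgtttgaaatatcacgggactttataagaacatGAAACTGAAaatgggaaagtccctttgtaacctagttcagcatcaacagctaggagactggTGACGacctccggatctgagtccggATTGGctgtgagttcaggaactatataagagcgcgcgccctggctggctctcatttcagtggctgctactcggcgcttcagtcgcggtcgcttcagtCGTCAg
Tap1, chr17:34187306-34187605, plus strand: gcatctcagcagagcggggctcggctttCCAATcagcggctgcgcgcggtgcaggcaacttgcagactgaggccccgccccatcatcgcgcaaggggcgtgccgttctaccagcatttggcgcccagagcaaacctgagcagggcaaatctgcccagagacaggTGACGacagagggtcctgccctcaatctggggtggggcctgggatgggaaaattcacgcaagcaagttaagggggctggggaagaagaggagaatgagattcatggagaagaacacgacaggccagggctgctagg
H2-T23, chr17:36032652-36032951, minus strand: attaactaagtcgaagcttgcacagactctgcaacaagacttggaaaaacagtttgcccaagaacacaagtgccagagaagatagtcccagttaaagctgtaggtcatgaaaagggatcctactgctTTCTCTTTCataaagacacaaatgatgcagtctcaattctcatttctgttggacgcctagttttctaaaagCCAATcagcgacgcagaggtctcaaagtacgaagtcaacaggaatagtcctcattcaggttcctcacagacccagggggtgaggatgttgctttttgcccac
Tapbp, chr17:33919228-33919527, plus strand: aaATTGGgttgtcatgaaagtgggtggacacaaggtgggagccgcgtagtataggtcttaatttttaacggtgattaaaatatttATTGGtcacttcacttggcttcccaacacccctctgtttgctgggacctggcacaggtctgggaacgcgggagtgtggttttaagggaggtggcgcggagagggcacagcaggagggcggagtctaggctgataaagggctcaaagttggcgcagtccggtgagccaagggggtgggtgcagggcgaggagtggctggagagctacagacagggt

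H2-K1, H2-D1 and H2-Q7 held the same 4 motifs: GGGATTCCC, GAANNGAAA on the other strand, TGACG, and CCAAT in both orientations. In H2-K1 they began at 110, 90, 41 and 16 bases before the start used here, and a second CCAAT lay 9 bases after it. For H2-K1, 2 promoters were listed and the first was used. Its stretch lies inside the gene span given above, and these distances hold for that start alone. H2-T23 held GAAANNGAA and CCAAT but neither TGACG nor GGGATTCCC, B2m held GAAANNGAA, TGACG and CCAAT, Tap1 held TGACG and CCAAT, Tapbp held CCAAT alone and Psmb8 held TTCNNNGAA alone. Among 32851 mouse promoters of the same length, GGGATTCCC was in 0.353%, GAANNGAAA in 7.52%, TTCNNNGAA in 8.30%, GAAANNGAA in 8.56%, TGACG in 20.8% and CCAAT in 37.4%. A match is a run of letters and no evidence of binding.

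The classical heavy chains, which present peptides to CD8+ T cells, were found in nearly every cell. H2-K1 stood at 4418 CPM in WT and 4308 in VISTA-KO CD8 cells, at 4850 and 4649 in conventional CD4 cells, at 4884 and 5699 in regulatory cells and at 3313 and 3542 in Siglech cells. H2-D1 stood at 3803 and 3892 in CD8 cells, at 4032 and 4096 in conventional CD4 cells, at 4168 and 4971 in regulatory cells and at 3494 and 4117 in Siglech cells. Regulatory cells of VISTA-KO were the highest of the 8 groups for both genes, and the 2 genes differed in Siglech cells, where H2-K1 was below every T cell group and H2-D1 was so in WT alone. After each cell was thinned to 2000 UMIs, which left 5192 WT and 4115 VISTA-KO CD8 cells, 14 WT and 7 VISTA-KO CD8 cells had no H2-K1 UMI.

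The nonclassical heavy chains separated further. H2-Q7, a gene of the Qa-2 family, stood at 1079 CPM in WT and 1085 in VISTA-KO CD8 cells, at 1018 and 999.2 in conventional CD4 cells, at 1004 and 1202 in regulatory cells and at 781 and 967 in Siglech cells. H2-T23, which encodes Qa-1, the ligand of the CD94-NKG2A receptor, stood at 691 and 775 in CD8 cells, at 710.0 and 743 in conventional CD4 cells, at 736 and 896 in regulatory cells and at 1179 and 1410 in Siglech cells. H2-T23 was thus highest in Siglech cells in each library, with intervals that did not meet those of any T cell group. Some heavy chain genes of the Q and T regions are near-copies, as H2-Q6 is of H2-Q7. How reads shared by such genes were handled could change their UMIs.

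B2m, which every class I heavy chain needs, varied little among T cells, at 2642 CPM in WT and 2716 in VISTA-KO CD8 cells, at 2754 and 2768 in conventional CD4 cells, at 2764 and 3031 in regulatory cells and at 2290 and 2328 in Siglech cells. Psmb8, the LMP7 subunit that interferon swaps into the proteasome, varied least over the 8 groups, at 1167 and 1137 in CD8 cells, 1107 and 1061 in conventional CD4 cells, 1111 and 1109 in regulatory cells and 1074 and 994 in Siglech cells. Psmb8 was lower in VISTA-KO than in WT in all 4 kinds, by at most a ratio of 0.926 (0.868 to 0.987) in Siglech cells.

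The transporter and loading genes showed where regulatory and Siglech cells stood apart. Tap1 stood at 302 CPM in WT and 339 in VISTA-KO CD8 cells, at 302 and 323 in conventional CD4 cells, at 391 and 447 in regulatory cells and at 221 and 233 in Siglech cells. Tap2 stood at 305 and 321 in CD8 cells, at 335 and 356 in conventional CD4 cells, at 368 and 428 in regulatory cells and at 215 and 196 in Siglech cells. Both transporter genes were highest in regulatory and lowest in Siglech cells in each library, while Tapbp went the other way in Siglech cells, at 416 and 509 against 282 and 299 in CD8, 306 and 320 in conventional CD4 and 305 and 368 in regulatory cells. Nlrc5 had the fewest UMIs: it stood at 82.0 and 88.3 CPM in CD8 cells, 78.8 and 77.8 in conventional CD4 cells, 68.7 and 71.8 in regulatory cells and 40.6 and 41.2 in Siglech cells. At 2000 UMIs per cell, 84.5% of WT and 83.0% of VISTA-KO CD8 cells had no Nlrc5 UMI, so its absence from a cell says little at this depth. All kinds of cell express class I, so no kind here can give a background share for free RNA.

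**Figure D1:**
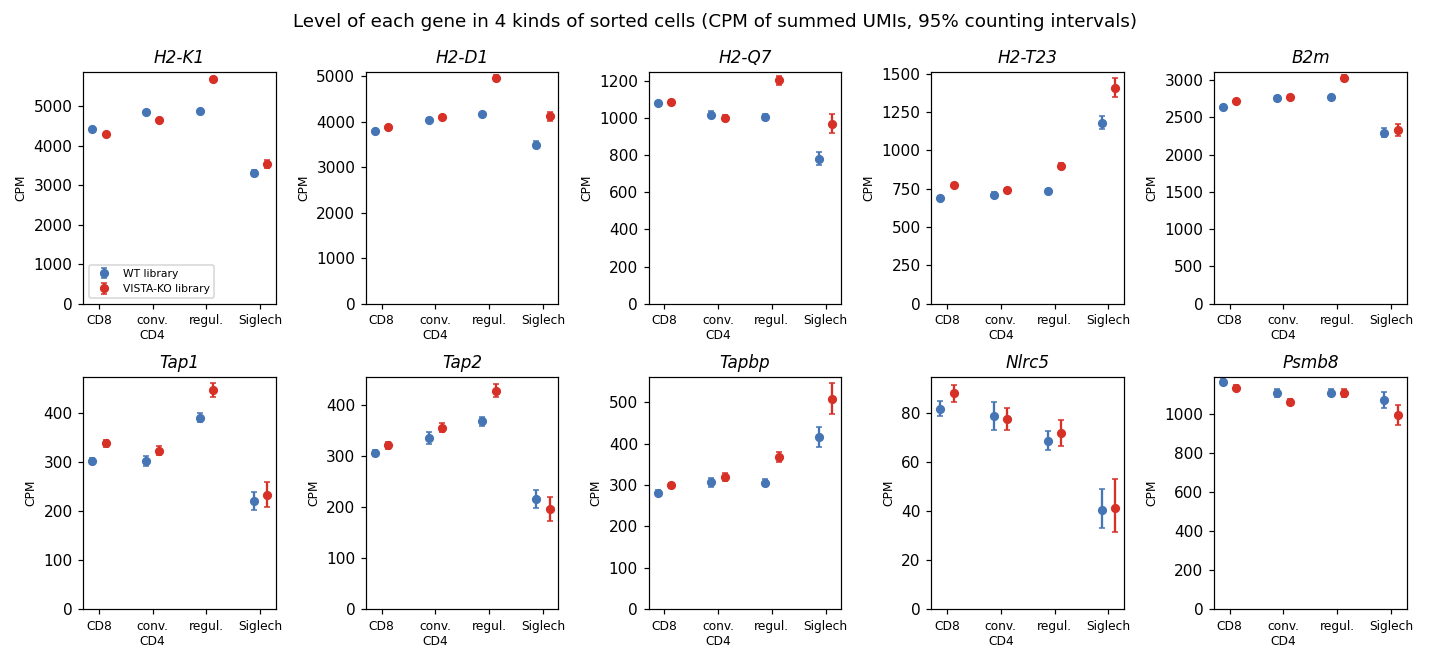
Level of each of the 10 genes (y axis, CPM of summed UMIs) in CD8, conventional CD4, regulatory and Siglech cells (x axis) of the WT library (blue) and the VISTA-KO library (red), with exact 95% counting intervals. VISTA-KO regulatory cells are highest for both classical heavy chains (5699 for H2-K1 and 4971 for H2-D1), and H2-T23 and Tapbp are highest in Siglech cells.

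Variance over mean from cell to cell reached its highest values for the classical heavy chains. At the same relative spread this measure rises with the mean, so it does not rank relative spread between genes of unlike abundance. Over the 8 groups, the variance of the thinned UMIs divided by their mean, which is near 1 for pure counting noise, ran from 1.85 to 2.82 for H2-K1 and from 1.56 to 2.18 for H2-D1. It ran from 0.954 to 1.13 for Nlrc5, from 0.932 to 1.20 for Tap2 and from 1.06 to 1.28 for Tap1. Cells held a median of 0 or 1 UMI of these 3 genes, so little spread beyond counting noise could be seen in them at this depth. The variance over mean did not follow abundance throughout. It ran from 1.29 to 1.68 for H2-Q7 (medians of 1 to 2 UMIs), from 1.22 to 1.49 for B2m (4 to 6) and from 1.16 to 1.32 for Tapbp (0 to 1). In CD8 cells of each library, the middle 80% of cells lay between 4 and 16 H2-K1 UMIs.

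Which kinds of T cell express more class I was asked within each library, where both kinds come from the same pool. Conventional CD4 cells differed little from CD8 cells: none of the 10 genes passed 1.5-fold in the mean of both libraries, against 3.76% of 6430 genes higher and 2.24% lower, and the median log2 ratio (of CPM + 5, as for all log2 ratios here) was 0.02 against 0.04 over all genes. H2-K1 was 1.10-fold higher in conventional CD4 than in CD8 cells in WT and 1.08-fold in VISTA-KO, Tap2 1.10 and 1.11, and H2-Q7 stood at a ratio of 0.943 and 0.921. The sign of the median was not stable and fell to -0.02 when ratios were centred on the median of all genes. Of the conventional CD4 cells, 29.9% in WT and 19.7% in VISTA-KO held a Cd8a or Cd8b1 UMI. Under stricter marker thresholds, which left such cells out of this kind, the median was 0.10.

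Taken as whole kinds, regulatory cells stood above conventional CD4 cells mainly in VISTA-KO, a difference between 2 libraries that was not tested. The median log2 ratio over the 10 genes was 0.14 in the mean of both libraries (0.002 over all genes), 0.01 within WT and 0.26 within VISTA-KO. None passed 1.5-fold, against 4.23% of 6555 genes higher and 3.22% lower. Tap1 came nearest, 1.29-fold higher in WT and 1.38-fold in VISTA-KO. The 4 heavy chain genes were within 0.986 to 1.04 of the conventional CD4 level in WT and 1.20- to 1.23-fold higher in VISTA-KO. Nlrc5 was lower in both libraries (ratios of 0.872 and 0.923). Cells were also split into dividing (a Mki67 or Top2a UMI), Ccr7 and remaining cells. Within each state all 4 heavy chain genes were higher in WT regulatory than in WT conventional CD4 cells. The share of all genes for which this held was not computed, so this count is no result about the 10 genes. The intervals of H2-Q7 overlapped in dividing (942 against 930 CPM) and in remaining cells (1148 against 1133). H2-K1 stood at 4510 against 4223 CPM in dividing, 4988 against 4093 in Ccr7 and 5696 against 5513 in remaining cells. Dividing cells were 45.5% of WT regulatory and 23.7% of WT conventional CD4 cells, and the part of this mix was not tested.

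Siglech cells had another balance of the same genes. H2-T23 was 1.71-fold higher than in CD8 cells in WT and 1.82-fold in VISTA-KO, and Tapbp 1.48- and 1.70-fold. Nlrc5 was at 0.496 and 0.467 of the CD8 level, Tap2 at 0.705 and 0.610, Tap1 at 0.731 and 0.687 and H2-K1 at 0.750 and 0.822. In the mean of both libraries 2 of the 10 genes passed 1.5-fold higher (H2-T23 and Tapbp) and 2 lower (Tap2 and Nlrc5), against 19.6% of 7062 genes higher and 17.2% lower, so the count of genes was near the background in each direction. The sign was the same in both libraries for 9 of 10 genes, H2-D1 being the exception. The share of all genes with the same sign was not computed, so this count is no result about the 10 genes. Without the Siglech cells that held T cell receptor complex UMIs, which left 129 WT and 95 VISTA-KO cells, the mean log2 ratio went from 0.81 to 0.96 for H2-T23, from 0.65 to 0.85 for Tapbp and from -0.97 to -1.35 for Nlrc5. The share of H2-K1 among the UMIs of H2-K1 and H2-D1 in Siglech cells was 48.7% for WT, with an interval of 47.9 to 49.4, and 46.2% for VISTA-KO, with an interval of 45.3 to 47.2, and lay between 52.5% and 54.6% in the 6 T cell groups.

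**Figure D2:**
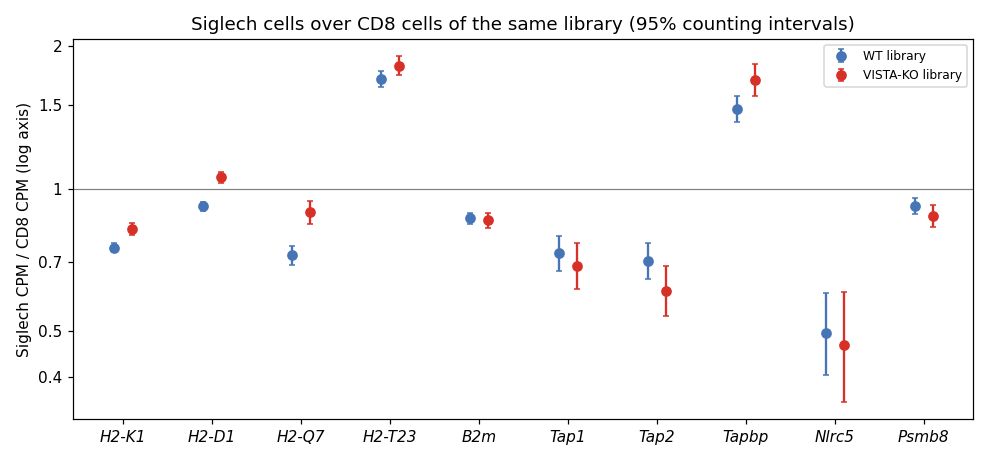
Ratio of the level in Siglech cells to the level in CD8 cells of the same library (y axis, log scale) for each gene (x axis), WT in blue and VISTA-KO in red, with exact 95% counting intervals and a line at 1. H2-T23 and Tapbp lie above 1 in both libraries, and Tap1, Tap2 and Nlrc5 below.

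The comparison of the genotypes asked whether class I presentation genes differed between T cells of the libraries labelled VISTA-KO and WT. The highest median was in regulatory cells, where 9 of the 10 genes were higher in VISTA-KO (48.6% of all 6274 genes tested were) with a median log2 ratio of 0.22 against -0.01 over all genes. The ratio of VISTA-KO to WT was 1.22 (1.18 to 1.2505) for H2-T23, 1.21 (1.16 to 1.26) for Tapbp, 1.20 (1.17 to 1.23) for H2-Q7, 1.19 (1.18 to 1.21) for H2-D1, 1.17 (1.15 to 1.18) for H2-K1, 1.16 (1.12 to 1.21) for Tap2, 1.14 (1.10 to 1.19) for Tap1 and 1.10 (1.08 to 1.11) for B2m. The intervals of Nlrc5 (1.05, 0.950 to 1.15) and Psmb8 (0.998, 0.975 to 1.02) included 1. None of the 10 passed a ratio of 5 to 4 in either direction on the CPM + 5 scale, against 6.28% of genes higher and 5.45% lower. WT regulatory cells held more Cd8a and Cd8b1 UMIs, more UMIs per cell and more dividing cells (45.5% against 35.4%). The median log2 ratio was 0.16 in the 732 WT and 893 VISTA-KO cells without Cd8a or Cd8b1 UMIs, 0.18 without dividing cells, 0.17 when every cell counted equally and 0.19 without likely doublets. No alternative matched the UMIs per cell of the libraries, and the part of depth was not tested. Over all alternatives run the median stayed between 0.14 and 0.23. Without the cells with Cd8 UMIs the log2 ratio of Tap1 was 0.08 (0.19 with them).

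In CD8 cells the same genes were close to level between the libraries. Of the 10, 8 were higher in VISTA-KO (40.6% of 6065 genes were), the median log2 ratio was 0.06 (-0.03 over all genes), and none passed 5 to 4, against 2.57% of genes higher and 1.6% lower. The widest differences were in Tap1 (ratio 1.12, 1.09 to 1.15) and H2-T23 (1.12, 1.10 to 1.14), while H2-K1 (0.975, 0.968 to 0.982) and Psmb8 (0.974, 0.960 to 0.988) were below 1. All genes also spread less here, with a median absolute log2 ratio of 0.073 against 0.122 in regulatory cells. Tap1 lay above 92.6% and H2-T23 above 92.5% of genes in CD8 cells, H2-K1 above 45.4% and Psmb8 above 44.7%. Removal of the most expanded clonotype, which was 1034 of the WT and 291 of the VISTA-KO CD8 cells, moved the median to 0.08, and removal of dividing cells moved it to 0.01.

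In conventional CD4 cells the sign of the median changed with the setting. Here 6 of the 10 genes were higher in VISTA-KO (40.3% of 6261 genes were), with a median of 0.01 (-0.04 over all genes) and none past 5 to 4, against 3.43% of genes higher and 4.15% lower. Tap1 stood at a ratio of 1.07 (1.02 to 1.12) and H2-K1 at 0.959 (0.948 to 0.970). Under stricter marker thresholds the median was -0.07 and 0 of 10 genes were higher, and without dividing cells it was -0.05 and 1 was higher. The share of all genes that were higher was not computed in these settings, so the counts are no result about the 10 genes. H2-K1 (log2 ratios of -0.19 to -0.03) and Psmb8 (-0.08 to -0.02) were lower in VISTA-KO under every alternative run.

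Siglech cells were few, and their intervals wide. Of the 10 genes, 8 were higher in VISTA-KO (46.5% of 6405 genes were), with a median of 0.09 (-0.02 over all genes), and none passed 5 to 4, against 10.4% higher and 12.1% lower. H2-Q7 stood at a ratio of 1.24 (1.16 to 1.33), Tapbp at 1.22 (1.11 to 1.35), H2-T23 at 1.20 (1.13 to 1.27) and H2-D1 at 1.18 (1.14 to 1.22), while Psmb8 was at 0.926 and Tap2 at 0.910 (0.785 to 1.05). Without the cells that held T cell receptor complex UMIs the median was 0.20, and 9 of the 10 genes were higher (47.7% of 6201 genes were). Then 3 of the 10 passed 5 to 4 higher, against 15.5% of genes, and none lower, against 15%. They were H2-Q7 (log2 ratio 0.54), Nlrc5 (0.62) and Tap1 (0.39). Whether CD4cre acts in these cells was not tested.

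**Figure D3:**
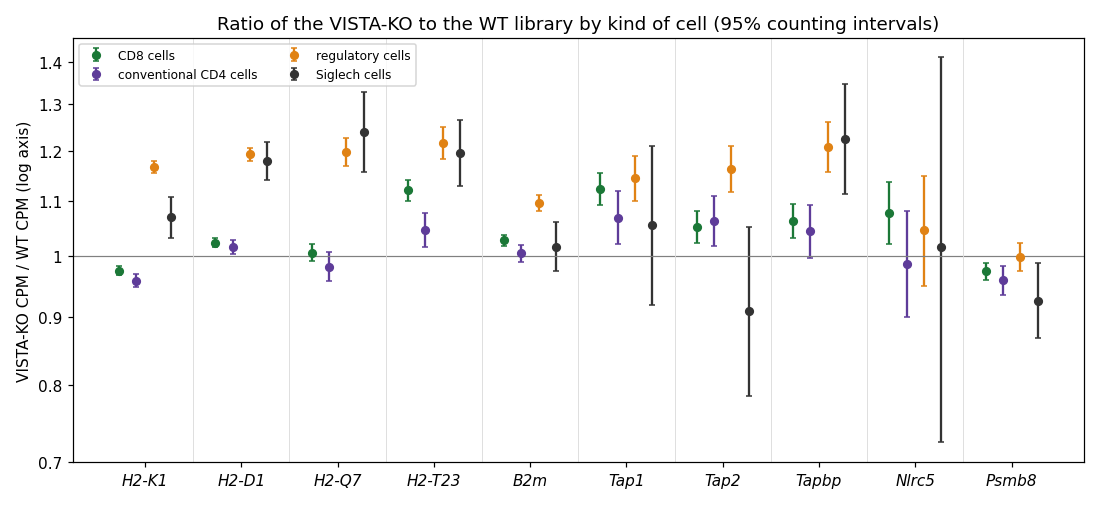
Ratio of the VISTA-KO to the WT library (y axis, log scale) for each gene (x axis) in CD8, conventional CD4, regulatory and Siglech cells, with exact 95% counting intervals and a line at 1. In regulatory cells 8 of the 10 intervals lie wholly above 1, and in CD8 and conventional CD4 cells H2-K1 and Psmb8 lie below 1. The share of all genes with such intervals was not computed. The intervals cover counting error alone, with 1 library per genotype, and are narrow for abundant genes.

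Within the T cell kinds the levels also differed between cell states. Cells were called dividing if they held a Mki67 or Top2a UMI, then Ccr7 cells if they held a Ccr7 UMI (a homing receptor of naive and central memory T cells), and CD8 cells were further split by Havcr2 (TIM-3, on exhausted cells) and Cx3cr1 (on effector cells). In CD8 cells, 9 of the 10 genes were lowest in Ccr7 cells in both libraries, Tapbp being the exception, against 30.8% of 7009 genes. H2-K1 stood at 3595 CPM in WT and 3448 in VISTA-KO Ccr7 cells, at 3996 and 4000 in dividing cells, at 4532 and 4583 in Havcr2 cells, at 4808 and 4273 in Cx3cr1 cells and at 5063 and 4851 in the remaining cells. Psmb8 stood at 875 and 793 in Ccr7 cells, at 977 and 963 in Cx3cr1 cells and between 1177 and 1221 in the other 3 states. Nlrc5 stood at 60.3 and 58.1 in Ccr7 cells and at 95.8 and 107.8 in the remaining cells. H2-Q7 was highest in WT Cx3cr1 cells, at 1375 against 1175 in VISTA-KO, a group of 302 WT and 171 VISTA-KO cells. Median UMIs per cell were 5527.5 in WT and 5108 in VISTA-KO Ccr7 cells, 8213 and 7678.5 in dividing cells and 4163 and 4411 in the remaining cells, and the part of depth in these calls was not tested.

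Conventional CD4 cells kept the same order for 8 of the 10 genes, which were lowest in Ccr7 cells in both libraries (37.4% of 6906 genes were), with H2-D1 and H2-T23 as exceptions. Tap1 stood at 182 CPM in WT and 218 in VISTA-KO Ccr7 cells and at 322 and 336 in the cells neither dividing nor with Ccr7, and Psmb8 at 831 and 703 against 1117 and 1090. Regulatory cells did not follow it. There H2-K1, H2-D1, H2-Q7, H2-T23 and B2m, 5 of the 10 genes, were lowest in dividing cells in both libraries (16.7% of 6838 genes were), H2-K1 at 4510 and 5056 in dividing, 4988 and 5526 in Ccr7 and 5696 and 6432 in the remaining cells. The median log2 ratio of VISTA-KO to WT was 0.17 in dividing, 0.22 in Ccr7 and 0.17 in the remaining regulatory cells. In conventional CD4 cells it was 0.16 in dividing, -0.12 in Ccr7 and -0.03 in the remaining cells, and in CD8 cells it was 0.08 in dividing, -0.04 in Ccr7, 0.10 in Havcr2, -0.03 in Cx3cr1 and 0.03 in the remaining cells. Over all genes the medians, in the same order of states, were 0.003, -0.011 and -0.020 in regulatory cells. They were -0.0002, -0.048 and -0.045 in conventional CD4 cells and -0.005, -0.015, -0.023, -0.018 and -0.038 in CD8 cells.

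**Figure D4:**
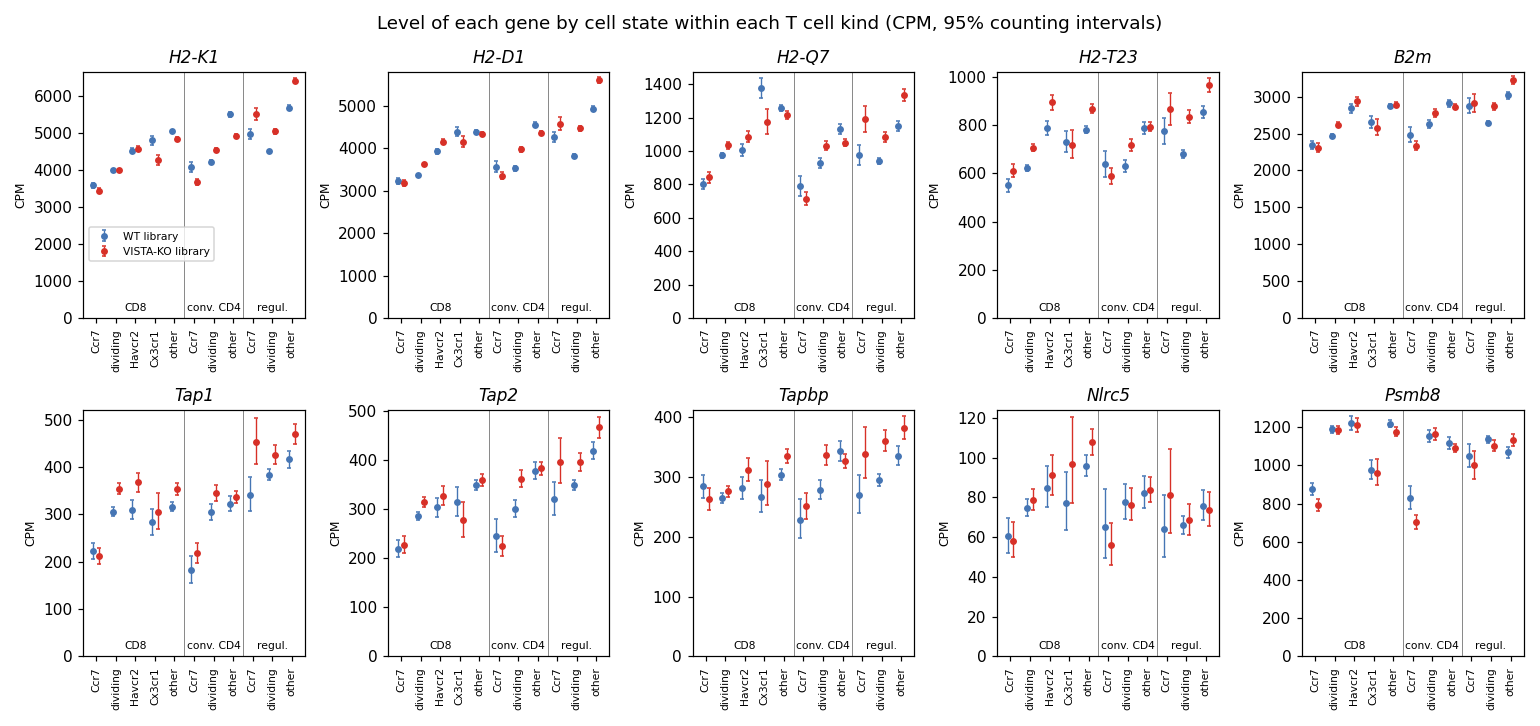
Level of each gene (y axis, CPM) by cell state (x axis) in CD8, conventional CD4 and regulatory cells, WT in blue and VISTA-KO in red, with exact 95% counting intervals. In CD8 cells 9 of the 10 genes are lowest in Ccr7 cells in both libraries, and the remaining regulatory cells of VISTA-KO are the highest T cell group for H2-K1 (6432 CPM).

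Class I genes respond to interferons, so levels were read along 2 lists of other interferon-induced genes. The type I list held Isg15, Ifit3, Rsad2, Irf7 and like antiviral genes (13 of 14 listed were in the tables), and the GTPase list the Gbp, Irgm, Igtp and Tgtp genes (13), which interferon gamma raises strongly. None of the 10 genes is on either list. Each cell was thinned to 2000 UMIs and put in a range of 0, 1 to 2, or 3 or more list UMIs. In CD8 cells, 12.0% of WT and 12.8% of VISTA-KO cells held 3 or more type I UMIs, and 34.8% and 40.8% held 3 or more GTPase UMIs. In regulatory cells those shares were 9.96% and 14.7% for the type I list and 44.5% and 53.0% for the GTPase list.

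All 10 genes were higher in CD8 cells with 3 or more UMIs than in those with none, in both libraries and for both lists, against 35.5% of 6344 genes for the type I list and 44.9% of 6349 genes for the GTPase list. Along the type I list 2 of the 10 passed 1.5-fold (4.18% of genes did), H2-T23 and Tapbp. In WT, H2-T23 stood at 608 CPM at 0 UMIs, 726 at 1 to 2 and 1108 at 3 or more, and in VISTA-KO at 673, 808 and 1168. Tapbp stood at 251, 281 and 448 in WT and at 260.2, 305 and 464 in VISTA-KO. H2-K1 stood at 4121, 4735 and 5213 in WT and at 4013, 4485 and 5064 in VISTA-KO, a ratio of 1.27 (1.245 to 1.29) and 1.26 (1.24 to 1.28). Median UMIs per cell before thinning were 5173 at 0 and 4539 at 3 or more UMIs in WT, and 5473.5 and 5072.5 in VISTA-KO. For both lists and every kind of cell, the part of depth and of the mix of cell states in these ranges was not tested.

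Along the GTPase list 4 of the 10 passed 1.5-fold (2.5% of genes did): H2-T23, Tap1, Tapbp and Nlrc5. Nlrc5 stood at 66.0, 78.5 and 92.7 CPM in WT and at 60.4, 76.3 and 111.9 in VISTA-KO, a ratio of 1.40 (1.26 to 1.56) and 1.85 (1.63 to 2.10). Tap1 stood at 245.5, 278.5 and 368 in WT and at 251.7, 300.5 and 420.1 in VISTA-KO, a ratio of 1.5 (1.42 to 1.58) and 1.67 (1.57 to 1.78). All 10 genes had a higher ratio along this list in VISTA-KO than in WT CD8 cells. Along the same list it also held for all 10 in regulatory cells, such as H2-K1 (1.308 in WT and 1.313 in VISTA-KO) and Tap2 (1.37 and 1.69). The share of all genes for which this held was not computed in either kind. It did not hold for all 10 along the type I list in CD8 cells, or along the GTPase list in conventional CD4 cells. In the latter H2-K1 stood at 1.30 in WT and 1.16 in VISTA-KO, and Tap1 at 1.68 and 1.96. In CD8 cells along the GTPase list the intervals of the libraries did not overlap for Nlrc5 or Psmb8 (1.26, 1.23 to 1.29, and 1.35, 1.31 to 1.39). They overlapped for the other 8 genes, by little for Tap1, Tapbp and B2m. The share of all genes whose intervals did not overlap was not computed. B2m had the lowest ratio of the 10 along both lists, 1.248 and 1.22 for the type I list and 1.18 and 1.23 for the GTPase list.

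**Figure D5:**
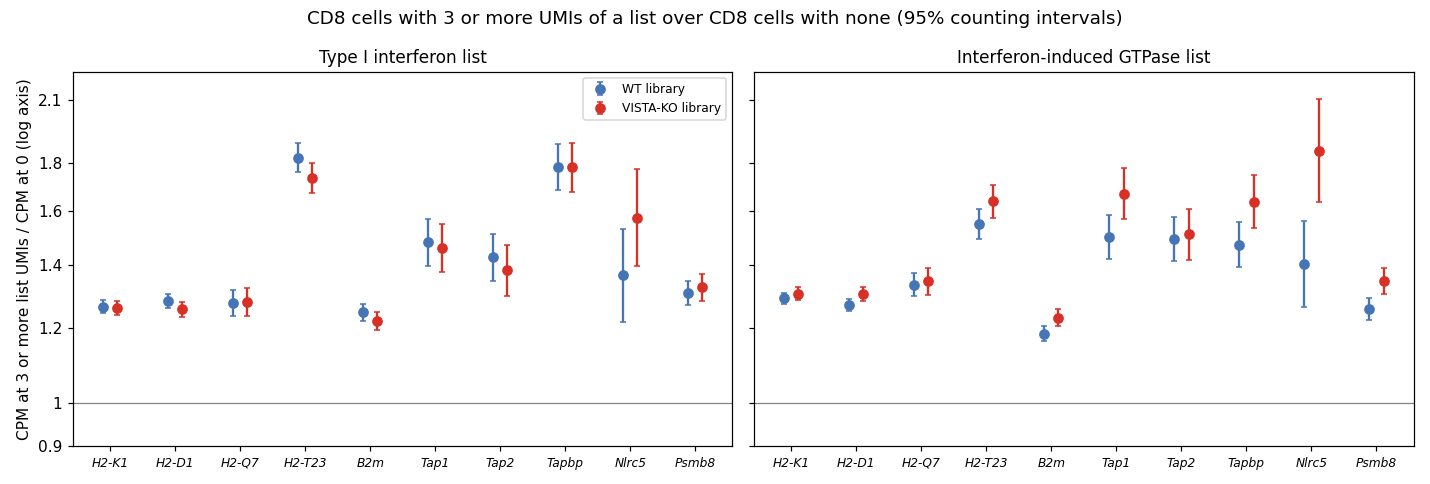
CD8 cells with 3 or more UMIs of the type I interferon list (left) or the interferon-induced GTPase list (right) over CD8 cells with none, as a ratio of CPM (y axis, log scale) for each gene (x axis), WT in blue and VISTA-KO in red, with exact 95% counting intervals. All 10 genes lie above 1 in both panels, H2-T23 and Tapbp highest on the left. On the right each of the 10 is higher in VISTA-KO than in WT, for which no share over all genes was computed.

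The order held in the CD4 lineages. All 10 genes were higher in both libraries in conventional CD4 cells (26.1% of genes for the type I and 34.4% for the GTPase list) and in regulatory cells (27.4% and 37.2%). The median log2 ratio of the 10 genes along the type I list was 0.44 in CD8, 0.40 in conventional CD4 and 0.29 in regulatory cells, and along the GTPase list 0.50, 0.54 and 0.46. In regulatory cells Nlrc5 had the highest ratio on the type I list (1.75 in WT and 1.66 in VISTA-KO), ahead of Tapbp and H2-T23. In Siglech cells only 32 WT and 28 VISTA-KO cells held 3 or more type I UMIs, and 31 and 17 held 3 or more GTPase UMIs. Tap1 was 1.81-fold (1.43 to 2.29) and 2.93-fold (2.10 to 4.11) higher there along the GTPase list, and Psmb8 was at 1.05 and 0.903 along the type I list. The difference between the genotypes in regulatory cells was also read within each range of the GTPase list: the median log2 ratio of VISTA-KO to WT was 0.04 in cells with 0 UMIs (216 WT and 131 VISTA-KO cells), 0.13 with 1 to 2 and 0.20 with 3 or more (644 and 641 cells). Within ranges of the type I list it was 0.19, 0.15 and 0.24.

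Other genes of the pathway were taken from a list by role, 41 of which were in the tables. Among relatives of the heavy chains, 2 of the 5 that passed the minimum of 20 CPM were past the 5-to-4 ratio in regulatory cells, higher in VISTA-KO (6.28% of all genes were). H2-Q4 went from 362 to 481 CPM (ratio 1.33, 1.28 to 1.38) and H2-Q6, a near-copy of H2-Q7, from 297 to 382 (1.29, 1.23 to 1.34). The same 2 genes were past it in Siglech cells, of 6 that passed the minimum (10.4% of all genes were), at ratios of 1.31 (1.18 to 1.45) and 1.44 (1.26 to 1.64). In CD8 and conventional CD4 cells none was. In peptide supply and loading none of 13 genes passed that ratio in any kind. Their median log2 ratio in regulatory cells was 0.01. The ends of their range are named after their values were seen: Tapbpl, a relative of tapasin, had the highest ratio (1.249, 1.16 to 1.34), and Psmb6, a subunit of the constitutive proteasome, the lowest (0.810, 0.764 to 0.858).

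Of the listed regulators, 17 passed the minimum in regulatory cells. Of these 17, 8 were past that ratio and higher in VISTA-KO, against 6.28% of all genes. None of the 17 was past it and lower, against 5.45% of all genes. Among the 8, Irf1, an interferon-induced transcription factor, went from 235 to 389 CPM, Irf9 from 61.1 to 87.7 and Stat2 from 34.4 to 46.2. Ifnar1, a chain of the type I interferon receptor, went from 98.7 to 164.5, Jak2 from 69.2 to 106.3, and the inhibitors Socs1 and Socs3 from 122.8 to 181 and from 70.3 to 118. Values of the listed genes are for the main setting alone. The part of depth, of cells with Cd8a or Cd8b1 UMIs and of dividing cells in them was not tested. In CD8 cells 3 of 16 regulators were past that ratio and higher (2.57% of all genes were), among them Irf1 (234 to 307 CPM) and Irf9 (54.4 to 69.5). In conventional CD4 cells 3 of 16 were (3.43% of all genes), Irf1 (264 to 381), Ifnar1 (91.1 to 126) and Socs3 (157 to 218). None of the 16 was past it and lower in either kind, though Ifngr1, a chain of the interferon gamma receptor, went from 782 to 664 CPM in CD8 cells. In Siglech cells 4 of 17 were past it and higher, against 10.4% of all genes, among them Irf1 (293 to 489), Irf9 (60.9 to 79.0) and Ifngr2 (54.3 to 81.8), and 3 lower, against 12.1%, Ifngr1 (281 to 175), Jak1 (208 to 161) and Socs1 (53.1 to 39.8). Irf1 was past that ratio in all 4 kinds.

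Between kinds, 9 of the 36 listed genes that passed the minimum were past 1.5-fold higher and 6 lower in Siglech than in CD8 cells, near the 19.6% and 17.2% of all genes that were. Among the 9, H2-T24, Fcgrt and Ifngr2 passed the minimum of 20 CPM in Siglech cells alone. Their place on the higher side follows from that filter, which was applied to all genes in the same way. Among the interferon receptor chains, Ifnar1 stood at 234 CPM in WT and 232 in VISTA-KO Siglech cells against 91.9 and 110.5 in CD8 cells, Ifnar2 at 376 and 465 against 104.9 and 107.0, and Ifngr2 at 54.3 and 81.8 against 4.19 and 7.23, while Ifngr1 stood at 281 and 175 against 782 and 664. Stat2 was higher (119 and 125 against 27.5 and 32.6). H2-T24, a relative of H2-T23, stood at 38.7 and 46.1 in Siglech against 9.69 and 10.7 in CD8 cells, and Fcgrt, the neonatal Fc receptor, which also binds B2m, at 158 and 182 against 19.1 and 9.99. Calr, Jak2 and Nfkb1 were the other genes past 1.5-fold higher, and Erap1, Irf2, Jak1 and Socs1 were among the lower ones. Jak1 stood at 208 and 161 against 413 and 380.1, and Erap1, which trims peptides, at 50.4 and 52.4 against 79.4 and 84.5. Conventional CD4 cells were past 1.5-fold above CD8 cells for 2 of 34 listed genes (3.76% of all genes were), Jak2 (84.9 and 96.4 against 50.9 and 51.3) and Socs3 (157 and 218 against 76.5 and 94.2), and regulatory cells were below conventional CD4 cells for 1 of 35 (3.22% of all genes were), Socs3 (70.3 and 118).

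How alike the 10 genes were was described over 20 groups of cells: the 3 T cell kinds, each split into dividing, Ccr7 and remaining cells, and Siglech cells, in both libraries. Groups share libraries and differ in depth and in cell number, from 93 to 3545 cells, so no test is attached. The highest Pearson r of log2 levels was between H2-K1 and B2m (0.98), with Tap2 close to both (0.96 with B2m and 0.94 with H2-K1), and Tap1 with Tap2 gave 0.92. H2-T23 and Tapbp tracked each other (0.91), while their r over these 20 groups was low with H2-K1 (0.16 for both) and negative with Nlrc5 (-0.31 and -0.30). These values include Siglech cells, where H2-T23 stood at 1179 CPM and H2-K1 at 3313 in WT. Among T cell groups, H2-T23 stood at 550 with H2-K1 at 3595 in WT CD8 Ccr7 cells. In remaining VISTA-KO regulatory cells it stood at 967 with H2-K1 at 6432. No r was computed without Siglech cells. From lowest to highest group, the level spanned 2.58-fold for Tap1, 2.56-fold for H2-T23, 2.53-fold for Nlrc5 and 1.41-fold for B2m. VISTA-KO regulatory cells neither dividing nor with Ccr7 were the highest group for 6 of the 10 genes. The share of all genes highest in that group was not computed, so this count is no result about the 10 genes.

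Outside the 10 genes, those with the most similar pattern over the same 20 groups, of 7930 genes, were named for 3 of them. For H2-K1 they were Prr14 (r = 0.96), Mthfsl (0.95) and Lrp10 (0.94). For Tap1 they were Gbp3, an interferon-induced GTPase (0.94), Nfil3 (0.93) and Actg1 (0.93). For Nlrc5 they were Rgs3 (0.94), Pttg1 (0.94) and Ppm1j (0.94).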

How the data were processed

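The authors deposited, for each library, a matrix of raw UMI counts made with Cell Ranger against the mm10 mouse genome, with T cell receptor contigs. The labels name a 3' kit with feature barcoding and the study's methods a 5' kit with receptor sequencing, so the end of the RNA that was counted is not settled here. The 10 genes, the gene lists and the tests were chosen with earlier results of these data known. All 10 genes are named, other pathway genes where they passed a ratio of 5 to 4 between the libraries or 1.5-fold between kinds, and the 3 genes most similar to each of H2-K1, Tap1 and Nlrc5.

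UMIs were summed per library and kind and scaled to the summed total (CPM). Levels have exact Poisson intervals and ratios exact conditional binomial intervals at 95%, which cover counting error alone. Log2 ratios used CPM + 5, and background shares the genes with at least 20 CPM in either group. Doublets were not removed in the main setting, and an alternative left out cells with 2 or more beta chains and the 5% of cells with most UMIs. Thinning drew 2000 UMIs per cell. The scripts were tested on simulated data. Python 3.11.15, numpy 2.4.6, scipy 1.17.1, pandas 2.3.3 and matplotlib 3.10.9 were used. The receptor contigs served to find the largest clonotype and cells with several beta chains. The search for GAANNGAAA was added after the promoter sequences were seen. Seurat 4 is named in the submitters' processing notes and made no file used here. A few listed genes are not reported here, though the counts over their lists include them.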

Additional observations from a re-analysis of the deposited data

How the results depend on the processing

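All values are medians of the log2 ratio over the 10 genes. With stricter kinds the genotype ratio was 0.14 in regulatory and -0.072 in conventional CD4 cells, and the ratio of conventional CD4 to CD8 cells was 0.10. With every cell counted equally the genotype ratio was 0.17 in regulatory, -0.068 in conventional CD4 and 0.19 in Siglech cells, regulatory over conventional CD4 cells was 0.22 and Siglech over CD8 cells -0.40. Without likely doublets the genotype ratio was -0.029 in conventional CD4 cells, regulatory over conventional CD4 cells 0.22 and Siglech over CD8 cells -0.37. Without dividing cells the genotype ratio was 0.012 in CD8, -0.050 in conventional CD4 and 0.18 in regulatory cells, and the ratios between kinds were -0.0082 (conventional CD4 over CD8), 0.23 (regulatory over conventional CD4) and -0.37 (Siglech over CD8). With a total free of mitochondrial, ribosomal and receptor genes these were -0.0093, 0.10 and -0.34. With kinds taken literally they were 0.044 and 0.11 for the first and second. Centring on the median of all genes gave 0.081 between the genotypes in CD8 cells and -0.021 for conventional CD4 over CD8 cells, and leaving out the largest clonotype gave 0.080 and 0.040. Of the alternatives added after seeing the data, leaving out cells with Cd8a or Cd8b1 UMIs gave -0.047 in conventional CD4 cells, 0.16 in regulatory cells and 0.19 for regulatory over conventional CD4 cells, and leaving out Siglech cells with T cell receptor complex UMIs gave 0.20 between the genotypes and -0.38 over CD8 cells. The causes of these shifts were not tested. In every alternative run 9 or 10 of the 10 genes were higher in VISTA-KO regulatory cells, while in conventional CD4 cells the number ran from 0 to 8. The share of all genes higher in these kinds was not computed for the alternatives. Over all alternatives the genotype ratio ran from 0.14 to 0.23 in regulatory cells, from 0.01 to 0.08 in CD8 cells, from 0.07 to 0.20 in Siglech cells and from -0.07 to 0.05 in conventional CD4 cells. With a minimum of 5 CPM in place of 20, 6.29% of genes were past 5 to 4 higher in regulatory cells and 7.0% lower. No paired analysis was possible because each genotype is 1 pooled library, and for the same reason no replicate could be left out. Depth limits Nlrc5 most, which had 104 UMIs in WT and 59 in VISTA-KO Siglech cells and a ratio with an interval of 0.725 to 1.41.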
